A study of Rattus norvegicus with 18 samples.

Results

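The metalloproteinases of the extracellular matrix, the related ADAMTS proteases and their tissue inhibitors were followed in rat kidneys. Members were all rows of the deposited gene table whose symbol begins with Mmp, Timp, Adamts or Adamtsl and a number. They came to 50 of 32116 genes, namely 23 matrix metalloproteinases (Mmp), 3 tissue inhibitors of metalloproteinases (Timp1, Timp3 and Timp4), 19 ADAMTS proteases and 5 ADAMTS-like genes (Adamtsl). Timp2 was not analysed here. RNA sequencing covered kidneys in 18 libraries, with 6 in each of 3 groups. Untreated rats formed the NC group. Rats of the CKD group (chronic kidney disease) received adenine at 100 mg per kg and day. In the SZ group, SZ-A at 300 mg per kg and day was added to that adenine dose. The sources used here do not state what SZ-A is, nor the strain, age, sex or length of treatment. Adenine overload injures the tubules and leaves a scarred kidney, and it models this one route to kidney disease. Since no label ties a library to its own animal, the p-values reflect how far these libraries scatter, and part of that scatter may be technical.

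Matrix metalloproteinases are zinc proteases that are secreted, or held at the cell surface, as inactive precursors, and they cut collagens, elastin, laminin, growth factors and receptors. TIMP proteins plug their active site, and the balance of protease and inhibitor is a long-standing theme of kidney scarring. ADAMTS proteases carry thrombospondin repeats that hold them in the matrix, where they trim proteoglycans, procollagens and von Willebrand factor, while ADAMTS-like proteins share those repeats but lack the protease domain.

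Levels are FPKM (fragments per kilobase of gene, scaled for library size), which are set per gene length and can be compared between genes. The library size divided by, worked out from the values, is not the plain total of reads. It was 0.862 to 0.951 of that total in NC libraries, 1.02 to 1.26 in CKD and 0.969 to 1.12 in SZ. Compared with plain library totals, this lowers CKD levels relative to NC. Between 15354358 and 18532375 reads stood behind each library. A gene was tested where FPKM reached 1 in at least 6 of the 18 libraries, which kept 13851 genes and 31 members (12 Mmp, 3 Timp, 12 Adamts and 4 Adamtsl). Of these 31, 17 reached FPKM 1 in all 6 NC libraries. The other 14 passed only with the help of adenine libraries, and 5 of them stayed under FPKM 1 in all NC libraries (Adamts12, Adamtsl1, Adamtsl5, Mmp7 and Mmp12). Log2 fold changes are on the scale of log2(FPKM + 1) and understate the change of low genes. A gene was called at a limma adjusted p under 0.05. Markers of kidney cells were present, with summed proximal tubule markers at 2318 to 3103 FPKM in NC, 490 to 1271 in CKD and 1367 to 2285 in SZ, and urothelium markers summed to at most 0.47 FPKM. Reads of CKD 2, CKD 5 and SZ 3 fell off on longer genes (slope of the level on gene length of -0.21, -0.31 and -0.25, against -0.10 to 0.11 in the other 15 libraries), and results that rest on them are given with and without them.

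In CKD against NC, 18 of the 31 tested members rose and 2 fell. Called genes were 50.3% of all genes tested, 24.4% higher and 26% lower, so a high count of calls is common in this comparison while calls were balanced in direction over the whole table. By family, 7 Mmp genes rose and 1 fell of 12, 8 Adamts genes rose and 0 fell of 12, 2 Adamtsl genes rose and 0 fell of 4, and among the 3 inhibitors 1 rose and 1 fell. The median log2 fold change was 0.65 over the tested members and -0.04 over all genes tested. The CKD and NC ranges did not overlap for 14 of the 31, against 26.5% of all genes tested. Because 14 members needed adenine libraries to pass the filter, these counts describe the members and are not a test of the list. Beside these changes, summed fibroblast and myofibroblast markers ran from 78.0 to 130.3 FPKM in NC and from 309 to 787 in CKD, and summed macrophage markers from 33.3 to 64.8 and from 207 to 812. Mitochondrial genes held 14.7% to 24.1% of reads in NC and 5.86% to 16.0% in CKD, and ribosomal RNA reads were highest in CKD 5 and CKD 6, at 1741 and 809 ppm of reads. Their part in the members' changes was not tested. In bulk tissue, fewer cells of a type and less RNA per cell cannot be told apart, here and below.

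The inhibitors moved apart. Timp1, an inducible secreted inhibitor (chromosome X, 1212972 to 1217664, minus strand, build mRatBN7.2), had a lowest, median and highest FPKM of 2.89, 4.13 and 7.24 in NC, 57.6, 89.6 and 215 in CKD and 25.0, 48.0 and 75.0 in SZ. All CKD and all SZ libraries lay above all NC libraries, and SZ 3 was the only SZ library inside the CKD range. Its log2 fold change was 4.23 in CKD against NC (SE 0.28, adjusted p = 5.5e-09), -1.12 in SZ against CKD (SE 0.28, adjusted p = 0.018) and 3.11 in SZ against NC (SE 0.28, adjusted p = 7.5e-07). Timp3, which binds to the matrix and also inhibits ADAM and ADAMTS proteases (chromosome 7, 17521919 to 17571839, minus strand), ran from 264 through a median of 308 to 388 FPKM in NC. It ran from 41.1 through 129 to 191 in CKD and from 103 through 265 to 308 in SZ. No CKD library reached the NC range, while SZ 1, SZ 2 and SZ 4 lay inside it and SZ 3 and SZ 6 lay inside the CKD range. Timp3 fell by 1.39 log2 units in CKD (SE 0.32, adjusted p = 0.0014), and its log2 fold change was 0.88 in SZ against CKD (SE 0.32, adjusted p = 0.077) and -0.51 in SZ against NC (SE 0.32, adjusted p = 0.27). Timp4 was low and had group means of 2.10 FPKM (SD 0.632) in NC, 1.80 (SD 0.752) in CKD and 1.87 (SD 0.624) in SZ, with a log2 fold change of -0.17 in CKD (SE 0.19, adjusted p = 0.48).

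The highest Timp1 values were those of CKD 5 and CKD 2 in CKD and of SZ 3 in SZ, and the lowest Timp3 values were those of CKD 5, CKD 2 and SZ 3, the libraries with the falling slope on gene length. Timp1 is counted over 873 bases and Timp3 over 1746, and the part of gene length in their values was not tested. Without these 3 libraries, the log2 fold change in CKD was 3.88 for Timp1 (adjusted p = 2.7e-08) and -1.0 for Timp3 (adjusted p = 0.00045), and in SZ against CKD it was -0.92 for Timp1 (adjusted p = 0.020) and 0.71 for Timp3 (adjusted p = 0.032). In SZ against CKD, Timp3 was also called without CKD 1 (1.02, adjusted p = 0.036) or without SZ 3 (1.10, adjusted p = 0.018). Timp1, Timp3 and Timp4 lie within the spans of the synapsin genes Syn1, Syn3 and Syn2 on the opposite strand, whose group means were at most 0.778 FPKM for Syn1, 0.784 for Syn3 and 0.164 for Syn2.

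As a share of the summed FPKM of the 3 measured inhibitors, Timp1 made up 1.36% in NC (SD 0.341), 44.3% in CKD (SD 21.1) and 18.9% in SZ (SD 12.4), over 6 libraries each. Shares ran from 1.02% to 1.92% in NC, from 23% to 83.4% in CKD and from 7.53% to 41.8% in SZ. The highest CKD share was that of CKD 5 and the highest SZ share that of SZ 3, and without CKD 2, CKD 5 and SZ 3 the highest shares were 39.6% in CKD and 22.8% in SZ. Timp3 still made up 54.9% in CKD (SD 21.1) and 80.4% in SZ (SD 12.5), after 98.0% in NC (SD 0.399). The summed level of the 3 inhibitors was 324 FPKM in NC (SD 52.2), 242 in CKD (SD 28.2) and 285 in SZ (SD 71.4). Over the same groups the summed level of the 23 Mmp genes was 53.0 (SD 14.6), 177 (SD 63.8) and 93.6 FPKM (SD 20.6). In the deposited scaling the measured inhibitor RNA was on average lower and the metalloproteinase RNA higher in CKD than in NC. The inhibitor sums overlapped, at 270 to 394 FPKM in NC and 207 to 283 in CKD. The Mmp sums did not, at 39.8 to 79.4 FPKM in NC and 102 to 275 in CKD. The sums were not taken under other scalings, and plain library totals would raise CKD relative to NC. These sums leave out Timp2.

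**Figure D1:**
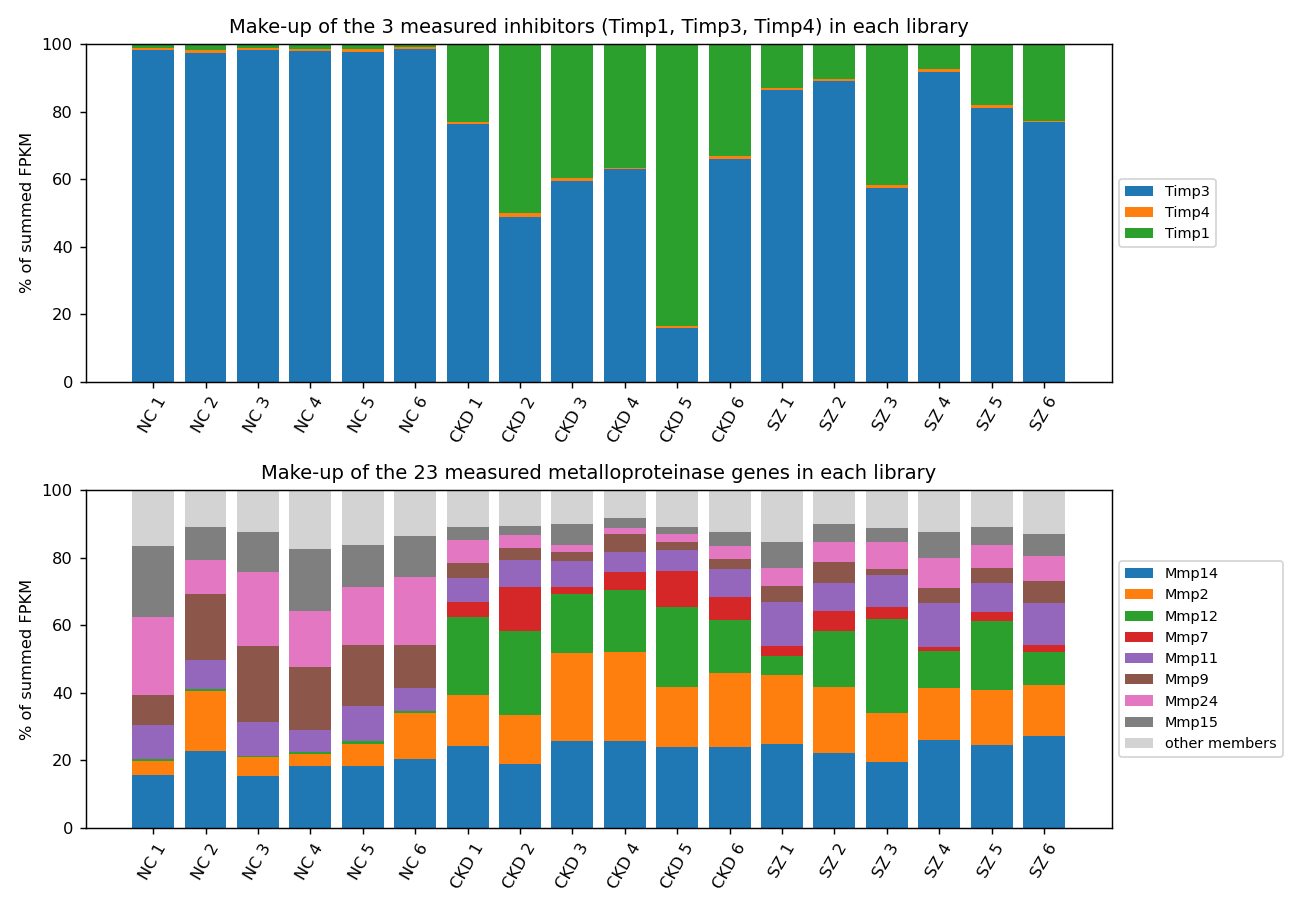
Share of the summed FPKM (y axis, percent) held by each of the 3 measured inhibitors (top) and by 8 named metalloproteinases and the rest (bottom) in each of the 18 libraries (x axis). Timp1 takes 1.02% to 1.92% of the inhibitor sum in NC and 23% to 83.4% in CKD, and in the lower panel the mean share of Mmp9 is 16.8% in NC and 3.55% in CKD, of a sum that is itself higher in CKD.

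The gelatinases, which cut denatured collagen and basement membrane collagen, did not move together. Mmp2, the gelatinase of stromal cells (chromosome 19, 14154657 to 14182870, minus strand), had a lowest, median and highest level of 1.66, 2.99 and 14.0 FPKM in NC, 15.7, 35.7 and 61.3 in CKD and 10.8, 17.2 and 19.6 in SZ. All CKD libraries lay above all NC libraries, while SZ 4 and SZ 6 lay below the CKD range and also below NC 2. Mmp2 rose by 2.83 log2 units in CKD (SE 0.37, adjusted p = 6.9e-06), and its difference of -1.07 in SZ against CKD (SE 0.37, adjusted p = 0.066) missed the threshold. Without NC 2 that difference was -1.07 with an adjusted p of 0.0285, and without CKD 1 it was -1.28 with an adjusted p of 0.020. Mmp9, the gelatinase known from neutrophils and other leukocytes (chromosome 3, 153683858 to 153692120, plus strand), ran from 3.97 through 8.24 to 15.6 FPKM in NC, from 4.01 through 5.11 to 12.2 in CKD and from 2.20 through 4.24 to 6.40 in SZ. The 3 ranges overlapped. Its log2 fold change was -0.47 in CKD against NC (SE 0.29, adjusted p = 0.19), -0.45 in SZ against CKD (SE 0.29, adjusted p = 0.31) and -0.91 in SZ against NC (SE 0.29, adjusted p = 0.031). The last call was lost when values were scaled to plain library totals (-0.73, adjusted p = 0.087), to TPM (-0.65, adjusted p = 0.13) or without the 20 most abundant genes (-0.80, adjusted p = 0.073). It was also lost without NC 2, NC 3, NC 4, SZ 1, SZ 3 or SZ 4 (adjusted p from 0.054 to 0.077), and without CKD 2, CKD 5 and SZ 3 (-0.79, adjusted p = 0.070). The summed neutrophil markers ran from 0.98 to 7.08 FPKM in NC, 5.88 to 25.9 in CKD and 4.14 to 9.56 in SZ, all CKD libraries lay above all NC libraries for 1 of the 6, and the granule genes Mpo, Elane and Prtn3 had group means of at most 0.067 FPKM. Their part in the Mmp9 level was not tested.

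Mmp14 encodes the membrane-type metalloproteinase that activates the Mmp2 precursor at the cell surface. Per length it was on average the most abundant Mmp gene in all 3 groups, though not in every library. In NC its mean of 9.97 FPKM was near those of Mmp9 (9.21) and Mmp24 (9.20). Mmp14 ran from 7.04 through 9.12 to 18.05 FPKM in NC, from 24.8 through 37.2 to 65.9 in CKD and from 18.3 through 21.6 to 27.0 in SZ (chromosome 15, 27887727 to 27899864, plus strand). Both adenine groups lay above all NC libraries, and SZ 5 was the only SZ library inside the CKD range. Mmp14 rose by 1.96 log2 units in CKD (SE 0.23, adjusted p = 1.6e-06) and fell by 0.83 in SZ against CKD (SE 0.23, adjusted p = 0.027). Mmp24, a membrane-type metalloproteinase best known from neurons, had a mean of 9.20 FPKM in NC (SD 2.17), 5.31 in CKD (SD 1.40) and 6.56 in SZ (SD 1.87), with overlapping ranges, and fell by 0.70 log2 units in CKD (SE 0.18, adjusted p = 0.0030). That call was lost under TPM scaling (-0.30, adjusted p = 0.13) and under plain totals (-0.40, adjusted p = 0.059), which move the median of all genes to 0.345 and 0.254. Mmp15 (-0.23, adjusted p = 0.27) and Mmp17 (-0.16, adjusted p = 0.27) were not called in CKD. Mmp23, whose product sits in the membrane by its amino end, rose by 0.65 (SE 0.21, adjusted p = 0.017) with its highest value of 15.6 FPKM in CKD 5, and lost the call without CKD 2, CKD 5 and SZ 3 (0.39, adjusted p = 0.055).

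Among the remaining secreted enzymes, Mmp11 (stromelysin-3, made by stromal cells and activated inside the cell by furin; chromosome 20, 12730836 to 12739628, plus strand) ran from 2.96 through 4.39 to 6.91 FPKM in NC, from 7.16 through 12.6 to 16.5 in CKD and from 8.40 through 9.61 to 11.4 in SZ. It rose by 1.24 log2 units in CKD without overlap (SE 0.18, adjusted p = 1.7e-05), and its difference in SZ against CKD was -0.26 (SE 0.18, adjusted p = 0.34). Mmp11 overlaps Chchd10 on the opposite strand, whose group means went from 330 FPKM in NC to 184 in CKD and 247 in SZ, and since the counting strand is not given, reads of the pair cannot be told apart. Mmp19, a protease of basement membrane and vessel walls (chromosome 7, 1221343 to 1229555, plus strand), ran from 0.415 through 0.824 to 1.71 FPKM in NC, from 2.68 through 5.06 to 7.99 in CKD and from 2.13 through 2.66 to 3.91 in SZ. Mmp19 rose by 1.72 in CKD (SE 0.20, adjusted p = 1.7e-06) and fell by 0.67 in SZ against CKD (SE 0.20, adjusted p = 0.039), with SZ 2, SZ 4 and SZ 6 below the CKD range. Mmp28 was not called in CKD (0.36, SE 0.19, adjusted p = 0.12). It was called without NC 5 (0.47, adjusted p = 0.048), without CKD 2 (0.47, adjusted p = 0.043) and without CKD 2, CKD 5 and SZ 3 (0.51, adjusted p = 0.048). TPM scaling and plain library totals called it too.

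The cluster of metalloproteinase genes on chromosome 8 held both members that changed greatly and members with no read at all. In the build mRatBN7.2 it spans 4497960 to 4855902 and holds 10 member genes in the order Mmp13, Mmp12, Mmp1b, Mmp3, Mmp1, Mmp10, Mmp8, Mmp27, Mmp20 and Mmp7. The cluster is known for collagenases, stromelysins, matrilysin and macrophage elastase, genes that are inducible by cytokines and growth factors through AP-1 factors (Fos and Jun proteins). Of the 10, 2 were tested, Mmp12 and Mmp7. Mmp12, macrophage elastase (4581785 to 4599611, plus strand), ran from 0.172 through 0.321 to 0.532 FPKM in NC, from 21.4 through 33.9 to 65.2 in CKD and from 4.503 through 12.1 to 34.3 in SZ. All CKD and SZ libraries lay above all NC libraries, and SZ 3 and SZ 5 lay inside the CKD range. Its log2 fold change was 4.74 in CKD against NC (SE 0.36, adjusted p = 2.4e-08), -1.39 in SZ against CKD (SE 0.36, adjusted p = 0.023) and 3.36 in SZ against NC (SE 0.36, adjusted p = 6.8e-06). Beside it, the summed level of 8 macrophage markers ran from 33.3 to 64.8 FPKM in NC, 207 to 812 in CKD and 116 to 277 in SZ, and for 8 of 8 all CKD libraries lay above all NC libraries. The part of macrophage number in the Mmp12 level was not tested.

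Mmp7 (matrilysin, a small protease of injured epithelium; 4848186 to 4855902, plus strand) was at 0 reads in all 6 NC libraries. It ran from 3.40 through 10.8 to 29.6 FPKM in CKD (1920 reads in all) and from 0.794 through 2.74 to 5.67 in SZ (403 reads). Against a floor of 3 reads over the NC group, Mmp7 was at least 503-fold higher in CKD and at least 114-fold higher in SZ, by counting error only. Its fitted log2 fold change in CKD of 3.52 (SE 0.39, adjusted p = 1.0e-06) depends on the pseudocount and is no bound. In SZ against CKD it fell by 1.65 log2 units (SE 0.39, adjusted p = 0.015), with SZ 2 and SZ 3 inside the CKD range. That SE pools the spread of all 3 groups, and the NC values of Mmp7 have an SD of 0. In a limma fit of SZ and CKD alone Mmp7 was not called (adjusted p = 0.057). Mmp20, the enamel protease and the nearest gene to Mmp7 at a distance of 18150 bases, stayed below the filter with 3 reads in NC, 484 in CKD and 216 in SZ. Its FPKM was at most 0.041 in NC, 0.142 to 2.61 in CKD and 0.136 to 1.73 in SZ, so all adenine libraries lay above all NC libraries. The other 7 genes of the cluster were near 0: Mmp1 and Mmp27 had 0 reads in all 18 libraries, Mmp1b had 1 read, and the highest single value was 0.801 FPKM for Mmp8 in CKD 2.

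**Figure D2:**
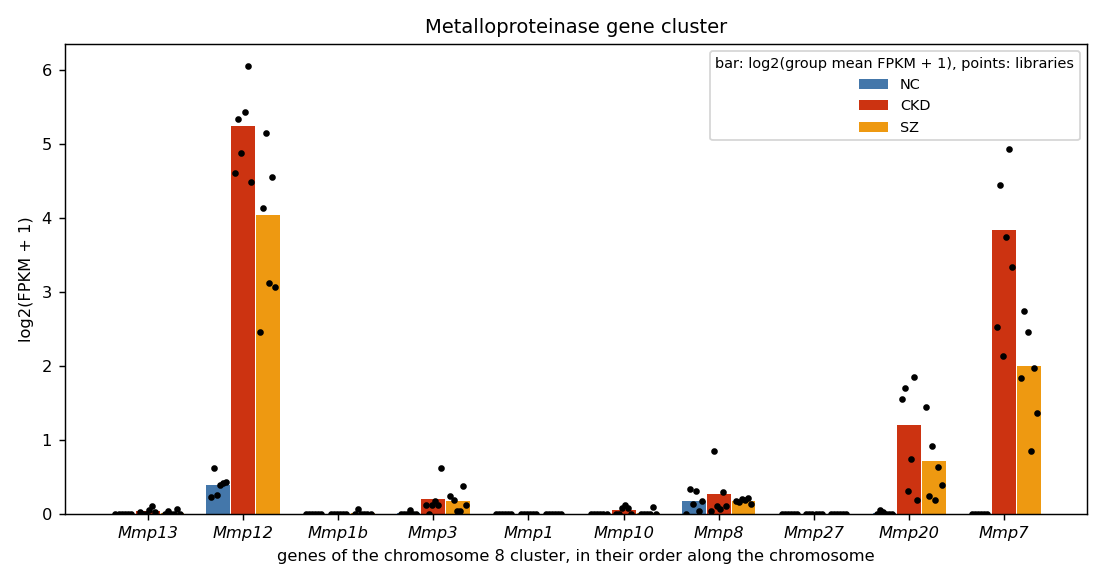
Level as log2(FPKM + 1) (y axis) of the 10 metalloproteinase genes of the chromosome 8 cluster in their order along the chromosome (x axis). Bars give the log2 of the group mean FPKM plus 1 and points give the 6 libraries of each group. Mmp12, Mmp7 and, at a lower level, Mmp20 stand above 0 in CKD and SZ, while their neighbours stay near 0.

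RefSeq promoter windows of 300 bases (250 before to 50 after the start, assembly GRCr8) were matched by symbol for 39 of the 50 members and searched for the AP-1 site TGACTCA on both strands (TGAGTCA on the other). It occurred in 1550 of 33469 promoters (4.63%) and in 6 of the 39 members' promoters (15.4%), and all 6 belong to the chromosome 8 cluster. Its first base lay 61 to 87 bases before the start. The 11 members without a window were not searched. They are Mmp2, Mmp9, Mmp14, Mmp16, Mmp17, Mmp19, Adamts5, Adamts8, Adamts15, Adamts16 and Adamts19, all outside the cluster. The windows of Mmp12 and Mmp7, the pair that moved, and a stretch of 90 bases from the 4 others are shown, with the AP-1 site in capitals, because genes with and without reads in these kidneys carry the same letters at nearly the same place. Windows are on the plus strand, at chr8:12866402-12866701 for Mmp12, chr8:13132793-13133092 for Mmp7, chr8:12782729-12782818 for Mmp13, chr8:12925181-12925270 for Mmp3, chr8:12943353-12943442 for Mmp1 and chr8:12974607-12974696 for Mmp10.
Mmp12: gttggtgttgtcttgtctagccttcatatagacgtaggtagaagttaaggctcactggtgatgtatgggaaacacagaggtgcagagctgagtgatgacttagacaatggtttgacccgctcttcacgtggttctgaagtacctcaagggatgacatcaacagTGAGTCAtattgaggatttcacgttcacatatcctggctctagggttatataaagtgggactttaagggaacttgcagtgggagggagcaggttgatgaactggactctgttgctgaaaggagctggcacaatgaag
Mmp7: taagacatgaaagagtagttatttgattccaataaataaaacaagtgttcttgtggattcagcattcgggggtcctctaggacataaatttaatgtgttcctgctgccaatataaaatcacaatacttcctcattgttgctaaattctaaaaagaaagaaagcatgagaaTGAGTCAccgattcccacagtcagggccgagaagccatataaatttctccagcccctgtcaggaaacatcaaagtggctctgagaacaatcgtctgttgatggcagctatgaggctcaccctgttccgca
Mmp13: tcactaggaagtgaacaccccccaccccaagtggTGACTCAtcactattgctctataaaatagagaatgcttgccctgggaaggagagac
Mmp3: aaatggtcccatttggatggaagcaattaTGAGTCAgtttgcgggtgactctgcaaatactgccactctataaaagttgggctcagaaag
Mmp1: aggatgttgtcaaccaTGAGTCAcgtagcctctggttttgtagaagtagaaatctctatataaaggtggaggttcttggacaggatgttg
Mmp10: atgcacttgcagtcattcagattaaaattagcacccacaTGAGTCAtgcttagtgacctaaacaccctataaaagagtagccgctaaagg
The site was in 2 of 13 matched promoters of members called higher in CKD, and those are Mmp12 and Mmp7. Mmp13, Mmp3 and Mmp10 carry it too and had 8, 33 and 7 reads in CKD, and Mmp1 carries it with 0 reads. The windows of Mmp8, Mmp20, Mmp27 and Mmp1b do not hold these letters, and Mmp20 was nonetheless above its NC level in all adenine libraries. A match of letters is a description of the window and no evidence of binding.

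Of the 8 ADAMTS genes that rose, 4 belong to the proteoglycan-cleaving group (Adamts1, Adamts4, Adamts8 and Adamts15), 1 trims procollagen (Adamts2), 2 cut cartilage oligomeric matrix protein (Adamts7 and Adamts12) and 1 cuts von Willebrand factor (Adamts13). Adamts1, a versican- and aggrecan-cleaving protease that is also antiangiogenic (chromosome 11, 24931761 to 24941103, minus strand), ran from 12.1 through 16.6 to 28.0 FPKM in NC, from 57.5 through 107 to 178 in CKD and from 42.7 through 73.7 to 96.4 in SZ. Both adenine groups lay above all NC libraries, and SZ 3 and SZ 4 lay below the CKD range. It rose by 2.60 log2 units in CKD (SE 0.28, adjusted p = 6.4e-07), and its difference of -0.69 in SZ against CKD (SE 0.28, adjusted p = 0.11) was not called, but was -0.87 with an adjusted p of 0.026 without CKD 1. Adamts1 made up 47.1% of the summed FPKM of the 19 Adamts genes in NC (SD 5.21), 72.4% in CKD (SD 4.17) and 67.7% in SZ (SD 5.53), with a sum of 37.3, 160 and 102 FPKM. Adamts4, also an aggrecanase (chromosome 13, 83670183 to 83680065, plus strand), ran from 0.0932 through 0.639 to 2.02 FPKM in NC, from 3.63 through 7.43 to 17.7 in CKD and from 1.28 through 4.60 to 6.91 in SZ, with only SZ 4 inside the NC range. It rose by 2.27 in CKD (SE 0.35, adjusted p = 3.8e-05), and the difference of -0.80 in SZ against CKD was not called (SE 0.35, adjusted p = 0.14). Adamts4 lies inside Ppox (overlap of 9883 bases) and overlaps Fcer1g, a leukocyte gene (1261 bases), both on the opposite strand. In NC, CKD and SZ, Ppox had group means of 28.6, 16.7 and 19.8 FPKM and Fcer1g of 5.0, 22.1 and 11.8. Reads of these genes cannot be told apart. Adamts5, an aggrecanase known from cartilage, was not called (0.41, SE 0.26, adjusted p = 0.20), nor was Adamts9 (0.28, SE 0.20, adjusted p = 0.27). Without CKD 2, CKD 5 and SZ 3, both were called, at 0.71 for Adamts5 (adjusted p = 0.017) and 0.52 for Adamts9 (adjusted p = 0.0098). Adamts9 overlaps a pseudogene on the opposite strand over 23730 bases, with group means of 12.9, 7.11 and 9.30 FPKM in NC, CKD and SZ. Reads of that pair cannot be told apart either.

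Adamts15 rose by 0.66 in CKD (SE 0.14, adjusted p = 0.00089) and its neighbour Adamts8 by 0.43 (SE 0.17, adjusted p = 0.040), a pair of proteoglycanases 17864 bases apart. Adamts8 kept its call in 17 of 30 settings and lost it without any one of NC 1, NC 2, NC 5, NC 6, CKD 3, CKD 4, CKD 5 or CKD 6 (adjusted p from 0.053 to 0.11), and without CKD 2, CKD 5 and SZ 3 (0.36, adjusted p = 0.084). Adamts2, which trims the amino end of fibrillar procollagens (chromosome 10, 34921049 to 35123821, plus strand), ran from 0.231 through 0.509 to 2.06 FPKM in NC, from 3.49 through 6.15 to 8.16 in CKD and from 2.15 through 3.24 to 3.42 in SZ. It was the only tested member whose SZ and CKD ranges did not overlap, against 2.26% of all genes tested. Its log2 fold change was 1.93 in CKD (SE 0.23, adjusted p = 2.2e-06) and -0.71 in SZ against CKD (SE 0.23, adjusted p = 0.052), and the latter was called without NC 2, CKD 1, CKD 2 or SZ 3 (adjusted p from 0.018 to 0.041). The other procollagen trimmers were low, with Adamts14 at a mean of 0.225 FPKM in NC, 0.816 in CKD and 0.541 in SZ and Adamts3 at no more than 0.858 FPKM in any library.

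Adamts12 ran from 0.268 through 0.530 to 0.953 FPKM in NC, from 1.41 through 2.53 to 4.68 in CKD and from 0.822 through 1.59 to 2.21 in SZ. Adamts7, which shares that substrate, ran from 0.153 through 0.348 to 1.38 FPKM in NC, from 0.931 through 2.37 to 3.35 in CKD and from 1.05 through 1.38 to 1.69 in SZ. Both are low, only NC 2 among the NC libraries reached the CKD or SZ range of Adamts7, and its SZ range lay inside its CKD range. In CKD the log2 fold change was 1.20 for Adamts12 (SE 0.19, adjusted p = 6.5e-05) and 1.04 for Adamts7 (SE 0.21, adjusted p = 0.00042). Adamts13, the protease that cuts von Willebrand factor, rose by 0.33 (SE 0.11, adjusted p = 0.023), a call lost without NC 6 (0.25, adjusted p = 0.062). Adamts10 (0.31, adjusted p = 0.12) and Adamts16 (0.28, adjusted p = 0.25) were not called in CKD, and Adamts10 was called without NC 2 (0.41, adjusted p = 0.043). Both were called under TPM scaling and plain library totals.

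Among the ADAMTS-like genes, Adamtsl4, a fibrillin-binding protein of microfibrils, ran from 2.10 through 2.63 to 5.06 FPKM in NC, from 4.64 through 9.33 to 12.5 in CKD and from 5.33 through 6.49 to 8.32 in SZ. It rose by 1.27 log2 units in CKD (SE 0.21, adjusted p = 6.3e-05), with NC 2 alone inside the CKD range. Adamtsl5 ran from 0.209 through 0.529 to 0.796 FPKM in NC, from 1.40 through 2.03 to 5.02 in CKD and from 0.811 through 1.28 to 3.10 in SZ, and rose by 1.17 in CKD (SE 0.22, adjusted p = 0.00027). Adamtsl2, which binds a latent form of TGF-beta, was not called (0.16, SE 0.26, adjusted p = 0.61), nor was Adamtsl1 (0.42, SE 0.24, adjusted p = 0.15), which was called without CKD 2 (0.57, adjusted p = 0.041) or without CKD 2, CKD 5 and SZ 3 (0.76, adjusted p = 0.0019). Adamtsl1 overlaps Sh3gl2, whose group means were 3.48 FPKM in NC, 2.52 in CKD and 2.61 in SZ. The summed FPKM of the 5 Adamtsl genes was 11.8 in NC (SD 3.61), 21.0 in CKD (SD 6.20) and 16.4 in SZ (SD 2.42).

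**Figure D3:**
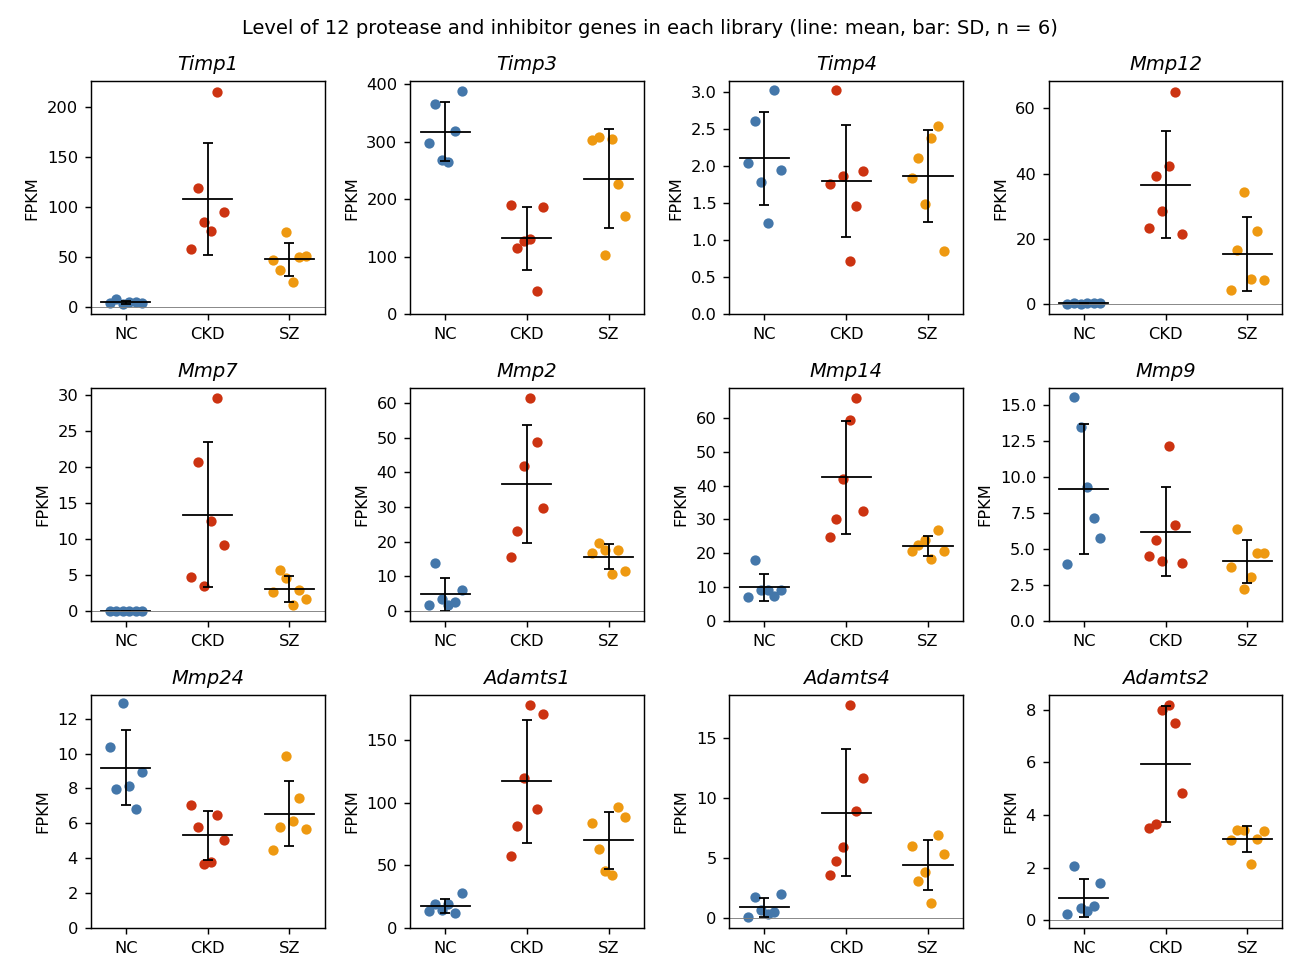
FPKM (y axis) of 12 member genes in each library of the NC, CKD and SZ groups (x axis). Points are libraries, lines are means and bars are SD over 6 libraries, each panel with its own scale. Timp1 rises from 2.89 to 7.24 in NC to 57.6 to 215 in CKD while Timp3 drops from 264 to 388 to 41.1 to 191, with Timp1 in SZ at 25.0 to 75.0 and Timp3 at 103 to 308.

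Among the 19 members below the filter, 2 had 0 reads everywhere and 4 reached FPKM 1 in some library (Mmp20, Mmp25, Adamts14 and Adamtsl3). Mmp25, a membrane-type metalloproteinase of leukocytes, had a mean of 0.124 FPKM in NC, 0.997 in CKD and 0.775 in SZ, without overlap of either adenine group with NC. Adamtsl3 went the other way, from a mean of 0.827 FPKM in NC to 0.26 in CKD and 0.416 in SZ. When all genes with a read were fitted, the log2 fold changes in CKD were 0.81 for Mmp25 (adjusted p = 5.7e-05), 1.04 for Mmp20 (adjusted p = 0.0071), 0.55 for Adamts14 (adjusted p = 0.0039) and -0.53 for Adamtsl3 (adjusted p = 0.00081). That fit also called Mmp16, a membrane-type gene, higher (0.23, adjusted p = 0.020), and it called Adamts17 (-0.23, adjusted p = 0.029), Adamts18 (-0.21, adjusted p = 0.042) and Adamts19 (-0.10, adjusted p = 0.014) lower. These 3 low Adamts genes were at most 0.601 FPKM (Adamts17), 0.418 (Adamts18) and 0.174 (Adamts19) in any NC library. The 8 Adamts genes that rose were called in the fit with the filter, and Adamts8 lost its call in the fit without it. In all, the fit without the filter called 21 of 48 members higher and 6 lower, with 34% of 23814 genes called.

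In SZ against CKD, 5 of the 31 tested members fell and 0 rose: Mmp7, Mmp12, Timp1, Mmp14 and Mmp19. Over all genes tested 11% were called, 4.16% higher and 6.82% lower. The members' median was -0.30 log2 units and that of all genes 0.0055, with 25 of 31 members below 0. At an unadjusted p under 0.05, 12 members were lower and 1, Timp3, was higher, beside 4014 of all 13851 genes tested in either direction. None of the 12 Adamts and 4 Adamtsl genes was called, with 4 Adamts genes (Adamts1, Adamts2, Adamts4 and Adamts12) and Adamtsl5 lower at an unadjusted p under 0.05. Beside these falls the summed macrophage markers had a median of 385 FPKM in CKD and 150 in SZ, and the summed fibroblast and myofibroblast markers 490 and 246. The part of these cell types in the falls was not tested.

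How firm the 5 calls are differs by gene. Without one library at a time, Mmp7 was called in every case, Timp1 was lost without SZ 4 (-0.95, adjusted p = 0.053), and Mmp12 was lost without CKD 5, SZ 1 or SZ 4 (adjusted p from 0.052 to 0.064). Mmp14 was lost without CKD 3, CKD 4, CKD 5, SZ 1, SZ 2 or SZ 4 (adjusted p from 0.0502 to 0.071), and Mmp19 without those same 6 or SZ 6 (adjusted p from 0.069 to 0.10). Without CKD 2, CKD 5 and SZ 3 together, Mmp7 (-1.19, adjusted p = 0.036), Timp1 and Mmp12 (-1.39, adjusted p = 0.017) were called and Mmp14 (-0.77, adjusted p = 0.057) and Mmp19 (-0.64, adjusted p = 0.075) were not. In a fit of SZ and CKD alone, Mmp14 was the only member called, and Mmp7 had an adjusted p of 0.057. The number of members called fell to 1 without SZ 4, 2 without CKD 5 or SZ 1, and 3 without CKD 3, CKD 4 or SZ 2, and rose to 8 without SZ 3 and 11 without CKD 1. The share of all genes called moved as well, from 11% to 3.85% without SZ 4, 4.83% without CKD 5 and 6% without SZ 1. It was 7.29% without CKD 3, 8.04% without CKD 4, 6.14% without SZ 2, 22.1% without SZ 3 and 20.2% without CKD 1.

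**Figure D4:**
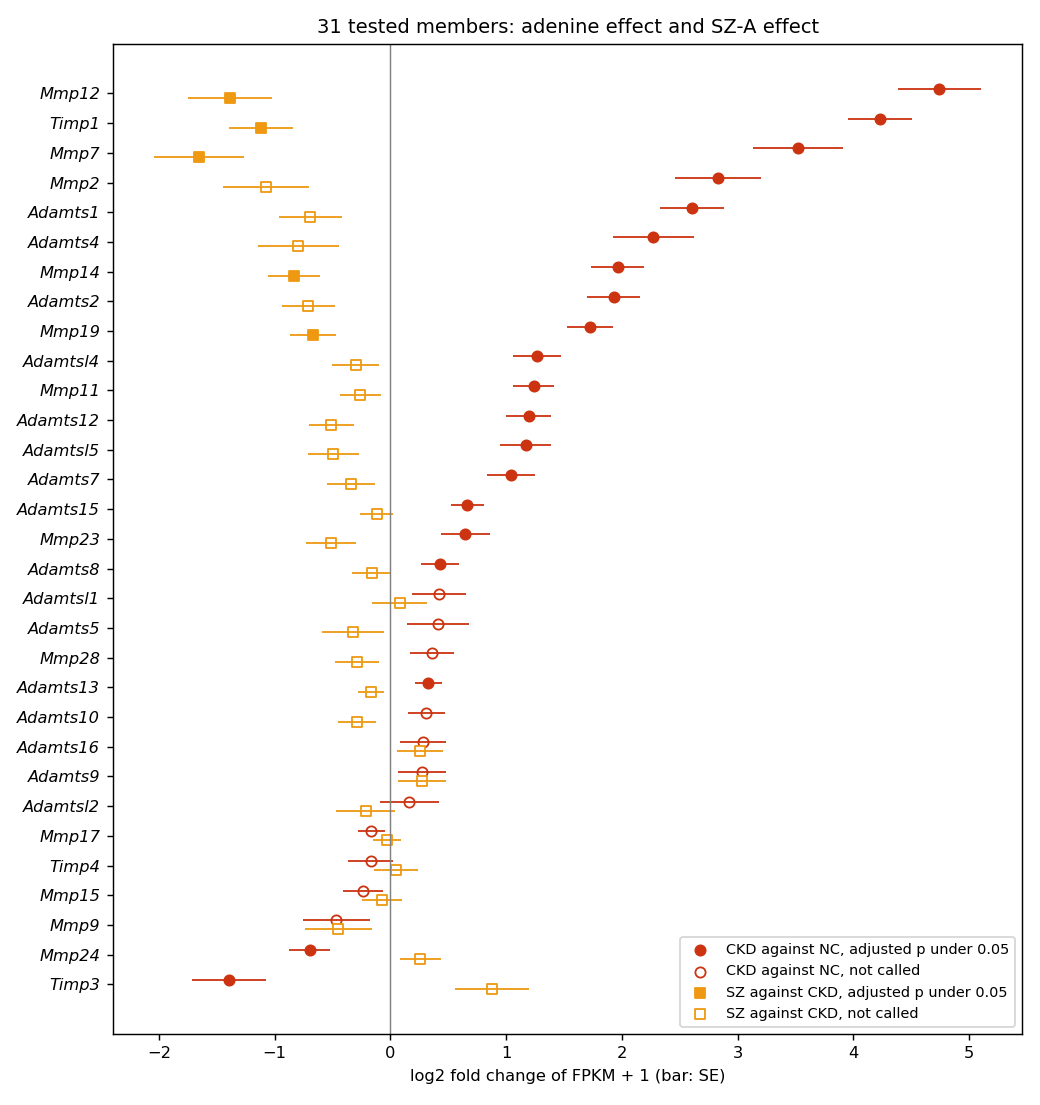
Log2 fold change of FPKM + 1 (x axis, bars are SE) of the 31 tested members (y axis, ordered by the change in CKD) in CKD against NC (circles) and SZ against CKD (squares). Filled symbols have an adjusted p under 0.05. Both comparisons share the CKD libraries, so a high CKD value moves the 2 symbols of a gene apart.

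In SZ against NC, 15 of the 31 tested members were higher and 1, Mmp9, was lower. Over all genes tested 21.1% were called, 12.5% higher and 8.61% lower, and ranges did not overlap for 11 of the 31 members against 14.6% of all genes. The members' median was 0.55 log2 units and that of all genes -0.035. Besides Mmp12 and Timp1, higher members included Mmp7 (1.87, SE 0.39, adjusted p = 0.0022, a fitted value that the pseudocount holds down), Adamts1 (1.91, SE 0.28, adjusted p = 9.5e-05), Mmp2 (1.75, SE 0.37, adjusted p = 0.0025) and Adamts4 (1.48, SE 0.35, adjusted p = 0.0058). Adamts2 (1.22, SE 0.23, adjusted p = 0.00096), Mmp14 (1.13, SE 0.23, adjusted p = 0.0015) and Mmp19 (1.06, SE 0.20, adjusted p = 0.0010) were also higher. The call of Adamtsl5 (0.68, adjusted p = 0.036) was lost without NC 3, NC 5, NC 6, SZ 1, SZ 2, SZ 3 or SZ 5 (adjusted p from 0.053 to 0.083), and that of Adamts7 (0.71, adjusted p = 0.021) without NC 4 (0.64, adjusted p = 0.051). Adamts16, Adamts9 and Mmp24 were not called (adjusted p of 0.061, 0.065 and 0.084). They were called without NC 4 or SZ 3 for Adamts16, without NC 2, CKD 4, CKD 5 or SZ 3 for Adamts9, and without SZ 3 for Mmp24 (adjusted p from 0.013 to 0.048).

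Genes that activate, dock or otherwise inhibit these proteases were counted from a list of 17, of which 16 were tested. Some genes of this list and of those below passed the filter only with the help of adenine libraries. Examples are A2m, Plaur, Adam19 and Vcan, with NC means of 0.051, 0.502, 0.910 and 0.615 FPKM. The counts and medians therefore describe the lists and are not a test of them. In CKD 12 rose and 1 fell, with a list median of 1.13 log2 units, where 24.4% of all genes tested were called higher and 26% lower. Lcn2, which binds and stabilises Mmp9, rose by 5.32 (SE 0.45, adjusted p = 6.3e-08), Cd44, a hyaluronan receptor that docks metalloproteinases, by 3.44 (SE 0.20, adjusted p = 1.7e-09) and A2m, a trap for many proteases, by 3.43 (SE 0.32, adjusted p = 1.8e-07). Of the plasmin system, which activates several precursors, the urokinase receptor Plaur rose by 1.96 (SE 0.20, adjusted p = 3.5e-07), while urokinase itself (Plau) had -0.27 (SE 0.18, adjusted p = 0.23). Plat, also of that system, rose by 0.46 (SE 0.14, adjusted p = 0.011) and had -0.53 in SZ against CKD (SE 0.14, adjusted p = 0.026). Tgfb1 rose by 2.33 (SE 0.29, adjusted p = 3.2e-06), and Furin, which cuts the precursors of Mmp14 and Mmp11, was the 1 that fell, by 0.38 (SE 0.13, adjusted p = 0.024). Between SZ and CKD, where 4.16% of all genes were called higher and 6.82% lower, 0 rose and 9 fell with a median of -0.73, among them A2m (-1.56, SE 0.32, adjusted p = 0.0087), Plaur (-0.98, SE 0.20, adjusted p = 0.0078), Tgfb1 (-0.94, SE 0.29, adjusted p = 0.041), Thbs2 (-0.89, SE 0.25, adjusted p = 0.029) and Cd44 (-0.84, SE 0.20, adjusted p = 0.016). In SZ against NC 7 were higher and 0 lower, with a median of 0.56, where 12.5% of all genes were called higher and 8.61% lower.

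Of 11 tested ADAM, astacin and procollagen-processing genes, 6 rose and 2 fell in CKD (median 0.64), against 24.4% of all genes called higher and 26% lower. The list held 16 genes, and Adam8, Adam28, Adam33, Tll2 and Pcolce2 were not tested. Pcolce, which enhances trimming of the carboxyl end of procollagen, rose by 1.74 (SE 0.26, adjusted p = 2.5e-05), Bmp1, the protease that trims it, by 1.35 (SE 0.16, adjusted p = 2.5e-06), Adam12 by 1.31 (SE 0.25, adjusted p = 0.00027) and Adam19 by 1.17 (SE 0.17, adjusted p = 2.0e-05). The pair that fell were the meprins of the proximal tubule brush border, Mep1a by 1.81 (SE 0.29, adjusted p = 5.5e-05) and Mep1b by 2.12 (SE 0.53, adjusted p = 0.0027). With SZ-A 4 were lower than in CKD, namely Pcolce (-0.85, SE 0.26, adjusted p = 0.041), Adam15 (-0.58, SE 0.16, adjusted p = 0.025), Bmp1 (-0.54, SE 0.16, adjusted p = 0.040) and Adam17 (-0.41, SE 0.096, adjusted p = 0.014), and 1, Mep1a, was higher (1.17, SE 0.29, adjusted p = 0.018), with a median of -0.37, against 6.82% of all genes called lower and 4.16% higher. In SZ against NC 6 were higher and 0 lower (median 0.37), against 12.5% and 8.61% of all genes.

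Of 12 tested matrix substrates, 10 rose and 0 fell in CKD (median 1.61), against 24.4% of all genes called higher and 26% lower. The list held 18 genes, and Acan (aggrecan), Comp (cartilage oligomeric matrix protein), Bcan, Ncan, Fbn2 and Hspg2 were not tested. Interstitial collagens led, with 3.68 for Col3a1 (SE 0.37, adjusted p = 3.4e-07) and 3.16 for Col1a1 (SE 0.37, adjusted p = 1.9e-06), followed by 2.77 for fibronectin, Fn1 (SE 0.24, adjusted p = 1.0e-07), 2.54 for Col1a2 (SE 0.35, adjusted p = 1.4e-05), 2.06 for fibrillin, Fbn1 (SE 0.31, adjusted p = 2.9e-05), and 1.65 for the basement membrane collagen gene Col4a1 (SE 0.22, adjusted p = 6.5e-06). Vwf, whose product Adamts13 cuts, had -0.44 (SE 0.19, adjusted p = 0.060). Versican, Vcan, a substrate of Adamts1 and Adamts4, went from a mean of 0.615 FPKM in NC to 3.17 in CKD and 1.07 in SZ. In SZ against CKD 3 fell, Col3a1 (-1.36, SE 0.37, adjusted p = 0.026), Vcan (-0.91, SE 0.26, adjusted p = 0.035) and Fn1 (-0.77, SE 0.24, adjusted p = 0.048), and 0 rose (median -0.53), against 6.82% of all genes called lower and 4.16% higher. In SZ against NC 8 were higher and 0 lower (median 1.20), against 12.5% and 8.61% of all genes.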

How the data were processed

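Kidney RNA of 18 libraries was sequenced after Trizol extraction and an Illumina TruSeq preparation, per the labels' protocols. The authors deposited 1 table of FPKM values for 32116 genes. The submitters' processing notes name HISAT2 2.0.5 and the build mRatBN7.2, while the counter, strand handling and annotation were not given in the sources used here. Multiplied by gene length and by a library size worked out from the steps between low values, 100% of values above 0 came within 0.01 of a whole number of reads, which gave the reads per gene. With strand unknown, overlapping genes cannot be told apart.

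The test was limma 3.58.1 (R 4.3.3) on log2(FPKM + 1), with the 3 groups in 1 model, a trend of variance with level, 2-sided p-values and Benjamini-Hochberg adjustment across the genes tested (FPKM of at least 1 in 6 libraries). The fit was tested on simulated data. Members and lists were chosen with earlier results of these data known. Full values were given for Timp genes, Mmp2, Mmp7, Mmp9, Mmp14, Adamts1, members called in CKD with a log2 change of at least 1, and those called in SZ against CKD. Of other lists, up to 6 called genes with the largest change were named, plus any against the majority, and 1 gene that this names is not reported here. Plau, Plat, Vwf and Vcan's levels were named after their values were seen. Alternatives were other pseudocounts, filters, scalings and fits, and each library left out. Tables were made with Python 3.11.15 and pandas 2.3.3, and promoters came from RefSeq tables of GRCr8.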

Additional observations from a re-analysis of the deposited data

Results flagged for a closer look

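In 10 of 92 sets of 6 libraries (31 tested members in 3 groups, without Mmp7 in NC, where all values are 0), 1 library stood apart from the other 5 by Dixon's criterion at the 95% level, which chance meets in about 1 in 20 sets. NC 2 was the highest NC library in 4 of them, with Mmp14 at 18.05 FPKM (next 9.17), Mmp2 at 14.03 (next 5.995), Timp1 at 7.244 (next 4.489) and Adamts7 at 1.384 (next 0.511). The summed fibroblast and myofibroblast markers were 130.3 FPKM in NC 2 and 128.5 in NC 6, against 78.0 to 97.6 in the other NC libraries, and their part in the NC 2 values was not tested. SZ 3 stood apart in 3 sets, with Adamtsl5 at 3.102 FPKM (next 1.399) and Mmp23 at 5.905 (next 4.741) as the highest and Adamts9 at 1.092 (next 2.593) as the lowest. Adamts9 is counted over 7395 bases and Mmp23 over 1403, and SZ 3 is one of the libraries whose level falls with gene length. Mmp23 was also highest in CKD 5, at 15.61 FPKM (next 7.377). Mmp9 was highest in CKD 4, at 12.17 (next 6.71), and Adamts2 was lowest in SZ 4, at 2.146 (next 3.031).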

How the results depend on the processing

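The 93 fold changes of the 31 tested members were refitted in 2832 cases over all alternatives, of which 0 reversed a called direction, 63 lost a call and 72 gained one. In CKD against NC the 20 members called became 11 (52.4% of all genes called) where a mean FPKM of at least 5 was asked, which tests 14 members. Without one library the members called ran from 18 to 22, and the share of all genes called from 46% to 53.3%. With no filter on low values 27 members were called (34% of all genes), with 21 higher and 6 lower in place of 18 and 2. In SZ against NC the 16 became 9 where that mean was asked (19.2% of all genes called). Without one library they ran from 14 to 17, with 15.8% to 24.3% of all genes called. In SZ against CKD the 5 became 3 with no filter on low values (4.61% of all genes called), 1 in a fit of these 2 groups alone (4%, with Mmp14 as the member called) and 10 with weights on the libraries (20.4%), and ran from 1 to 11 without one library (3.85% to 22.1%). The cause was not tested. Scaling to TPM or plain totals moved the median of all genes in CKD against NC to 0.345 or 0.254 and the share of called genes that are higher from 48.4% to 84% or 77.8%, with 23 members higher and 1 lower in both.

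Replicate numbers are shared by the groups, but same-numbered libraries did not deviate together (mean correlation 0.0042, over 0.1 in 4 of 18 pairs). With the number as a replicate block, 19, 5 and 17 members were called in CKD against NC, SZ against CKD and SZ against NC. Of all genes, that fit called 47.9%, 8.63% and 18.7%. Added after seeing the data were plain totals, a limma-voom fit on recovered reads (20, 7 and 16 called), a correction for gene length (22, 7 and 19) and the fit without CKD 2, CKD 5 and SZ 3 (22, 4 and 19). Of all genes, limma-voom called 49.4%, 11% and 19.6%, and the length correction 53.7%, 14.2% and 25%. The fit without CKD 2, CKD 5 and SZ 3 called 50.2%, 10.7% and 28%. Depth limits the low members: 3 reads over a group is the floor for a fold.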
